A study of Mus musculus with 16 samples.

Results

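High-fat diet (HFD) was compared with standard chow in the hearts of wild-type (WT) mice, using 8 of the 16 arrays of a study that crossed diet with genotype. The members are the 4 arrays titled WT HFD and the 4 titled WT SC, here called WT chow, and the readout is the 22180 genes whose probe sets carry exactly 1 gene symbol. Both groups were wild-type mice of the C57Bl/6J background, killed when 32 weeks old, after 24 weeks on their diet and 7 hours into the light phase (ZT7), so they share strain, age, clock time and tissue and differ by diet alone as far as the labels say. The other 8 arrays were from mice homozygous for the Clock delta 19 mutation (Clock hearts), 4 on HFD and 4 on chow, collected at the same age and hour. Myocardium was snap frozen, and 500 ng of total RNA from it was labelled for an Affymetrix array. The labels call the 4 arrays of a group biological replicates without naming the animals, so p-values measure spread between arrays. That spread was pooled within groups over all 16 arrays, those of Clock hearts included. The fat content of the diet, the sex of the mice and their body weight are not in the labels.

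The heart takes most of its energy from long-chain fatty acids, which are carried into mitochondria as carnitine esters and shortened by beta-oxidation. The genes of this route are targets of peroxisome proliferator-activated receptors (PPARs), nuclear receptors that bind fatty acids, and fat feeding is a known inducer of such targets in heart and skeletal muscle. Cardiomyocytes also run a circadian clock, in which ARNTL (BMAL1) pairs with CLOCK at E-box sequences to drive Per, Cry, Nr1d and Dbp family genes, while REV-ERB proteins (Nr1d1, Nr1d2) repress Arntl through ROR response elements (ROREs).

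Deposited values are centred row by row, with 0 as the median of the 16 arrays, and genes cannot be ranked by level. Values were read as log2, with higher meaning more RNA, and differences are WT HFD minus WT chow with the standard error (SE) of a limma fit over all 16 arrays, each difference resting on 4 arrays against 4; a gene was called where its Benjamini-Hochberg adjusted p over 22180 genes was under 0.05. On the leading principal component of the 8 WT arrays, WT chow 2 lay furthest out at -15.2 and WT HFD 4 next at 10.8; WT chow 4 stood at -8.72, the other chow arrays at -3.29 and -2.99, and the other HFD arrays at 4.51 to 8.20. WT chow 2 carried high values of interferon-inducible genes and WT chow 4 low values of clock output genes. All 12 cardiomyocyte markers were measured and 0 were called, with differences from -0.11 to 0.17, but centred values hold no level from which to judge their presence.

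Few genes passed the test, and most of their differences were small. Of 22180 genes, 78 were called (0.352% of genes), while 2363 (10.7%) had an unadjusted p under 0.05. Of the 78, 41 were higher on HFD (0.185%) and 37 lower (0.167%). No rise reached 2-fold, and 3 falls did: Arntl, the cell cycle inhibitor Cdkn1a and the secretoglobin Scgb1c1. The called rises ran from 0.20 to 0.79 on the log2 scale and the falls from 0.18 to 1.43 in size. In 77 of the 78 genes the 4 HFD values and the 4 chow values did not overlap. The genes were called on these same values, so that separation is no separate support for them. Over all genes, the values of 5.30% did not overlap, 2.80% with HFD higher and 2.50% with HFD lower. The median difference over all genes was -0.0022 and 48.8% of genes lay above 0. With 0.352% of genes called, 0 calls in any list below is near that share and says nothing of the list's members.

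The count depended on single arrays, and leaving out 1 WT array at a time gave between 28 calls (without WT HFD 4) and 65 (without WT chow 3), with 31 without WT chow 4, 36 without WT chow 1, 41 without WT HFD 1 and 43 without WT HFD 2. All 78 genes kept their direction in these 8 fits. For the 77 whose groups did not overlap, leaving out an array could not have changed it. 14 of the 78 stayed called in each of them: Ephx2, Me1, Vwa8, Hadha, Acaa2, Cpt2, Hsdl2, Abca1, Pik3r1, Scn4b, Pde11a and Wipf3, which rose, and Dpy19l3 and Myadm, which fell. With WT chow 2 and 4 both left out, 11 genes were called, 10 of them among the 78. With the 8 WT arrays alone in the fit, 15 were called, 13 of them among the 78. Over 18 other settings, the 8 leave-one-out fits included, Ephx2, Me1, Vwa8 and Dpy19l3 were called in each. The rest of the 14 were called in 15 or 16 of these settings.

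Genes of mitochondrial beta-oxidation and PPAR-responsive genes lay above 0 almost without exception, mostly by small amounts, and several passed the test. Among 20 measured genes of mitochondrial beta-oxidation, 5 rose, none fell and 19 had a difference above 0, with a median of 0.15. The 5 were Acads, Acadvl, Acaa2, Hadha and Etfdh, and 10 of the 20 had HFD values wholly above the chow values against 2.80% of all genes. Of 34 PPAR-responsive genes, 5 rose (Ephx2, Pex11a, Acadvl, Hadha and Etfdh), none fell and 33 lay above 0, with a median of 0.17; 3 of these 5 also sit in the beta-oxidation list. In the carnitine shuttle, 1 of 13 measured genes rose, Cpt2, while 10 lay above 0, 3 lay below and the median was 0.054.

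Acadvl, the very long-chain acyl-CoA dehydrogenase of the inner mitochondrial membrane, read -0.062, -0.26, -0.19 and -0.33 on chow and 0.079, 0.13, 0.097 and 0.18 on HFD. It rose by 0.33 ± 0.056, a 1.26-fold higher value (adjusted p = 0.0167, limma). Acads, the short-chain acyl-CoA dehydrogenase, read -0.10, -0.25, -0.12 and -0.49 on chow and 0.17, 0.14, 0.063 and 0.14 on HFD. Its chow values were spread by WT chow 4, the lowest of the 8, while the HFD values stayed within a narrow band, and the rise was 0.37 ± 0.072 (adjusted p = 0.0380). Hadha, the alpha subunit of the trifunctional protein that carries out the later steps on long chains, read -0.026, -0.099, -0.061 and -0.18 on chow and 0.21, 0.20, 0.25 and 0.21 on HFD. The 4 HFD hearts were nearly alike, and the rise was 0.31 ± 0.047 (adjusted p = 0.0114). Acaa2, the thiolase that closes each round, read -0.062, -0.20, -0.11 and -0.22 on chow and 0.16, 0.18, 0.12 and 0.21 on HFD, a rise of 0.32 ± 0.048 (adjusted p = 0.0114). Etfdh, which passes electrons from the dehydrogenases to ubiquinone, read -0.13, -0.13, -0.21 and -0.14 on chow and 0.022, 0.065, 0.049 and 0.12 on HFD, the smallest of these rises at 0.22 ± 0.039 (adjusted p = 0.0254). Cpt2, which frees acyl groups from carnitine inside the mitochondrion, read -0.081, -0.18, -0.098 and -0.23 on chow and 0.090, 0.15, 0.18 and 0.24 on HFD. It rose by 0.31 ± 0.049 (adjusted p = 0.0153).

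Other enzymes of the same spiral, named here after their values were seen, had smaller differences or missed the threshold. Acadm, the medium-chain dehydrogenase, read -0.0013, -0.12, 0.0013 and -0.13 on chow and -0.084, 0.069, 0.011 and 0.038 on HFD, overlapping groups with a difference of 0.071 ± 0.046 (adjusted p = 0.651). Acadl differed by 0.082 ± 0.036 (adjusted p = 0.421) and Hadhb, the partner subunit of Hadha, by 0.13 ± 0.076 (adjusted p = 0.580). Echs1, the enoyl-CoA hydratase, was the 1 member of the list below 0, at -0.059 ± 0.041 (adjusted p = 0.687). Decr1, needed for unsaturated chains, had groups that did not overlap and a difference of 0.32 ± 0.066, just outside the threshold (adjusted p = 0.0514), and Etfdh stood inside it with a smaller difference and a smaller spread.

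The peroxisomal list held the gene with the smallest p of all. Ephx2, the soluble epoxide hydrolase that opens epoxides of fatty acids, read -0.12, -0.27, -0.19 and -0.36 on chow and 0.28, 0.25, 0.26 and 0.39 on HFD. Its groups were separated by more than the range of either, and it rose by 0.53 ± 0.059, or 1.45-fold (adjusted p = 0.00213). Pex11a, a membrane protein of peroxisome division, read -0.036, -0.059, -0.30 and -0.26 on chow and 0.31, 0.21, 0.081 and 0.13 on HFD and rose by 0.34 ± 0.068 (adjusted p = 0.0391). These were 2 of 24 measured peroxisomal genes, with none called lower, 18 above 0, 6 below 0 and a list median of 0.053. Vwa8, a mitochondrial ATPase-domain protein, rose by 0.48 ± 0.057 (adjusted p = 0.00213) and Hsdl2, a dehydrogenase-like protein of peroxisomes and mitochondria, by 0.32 ± 0.044 (adjusted p = 0.00899).

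Several PPAR targets that are usual markers of fat feeding did not pass; they were picked here after their values were seen. Pdk4, the kinase that shuts pyruvate dehydrogenase, read -0.34, 0.025, -0.58 and -0.32 on chow and 0.19, -0.025, -0.19 and 0.18 on HFD, overlapping groups with a difference of 0.35 ± 0.16 (adjusted p = 0.466). Acot1, a cytosolic acyl-CoA thioesterase with near-identical paralogs that probe sets may not separate, differed by 0.48 ± 0.15 (adjusted p = 0.185). Ucp3 differed by 0.19 ± 0.14 (adjusted p = 0.720) and Angptl4 by 0.034 ± 0.21 (adjusted p = 0.981). Txnip, which is induced by glucose, was the 1 member of the PPAR list below 0, at -0.071 ± 0.094 (adjusted p = 0.879). Fatty acid uptake and activation had 0 of 22 measured genes called, and its leading member, the fatty acid transporter Cd36, read -0.073, -0.015, -0.065 and -0.066 on chow and 0.062, 0.10, 0.081 and 0.12 on HFD, groups that did not overlap with a difference of 0.15 ± 0.042 (adjusted p = 0.154).

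**Figure D1:**
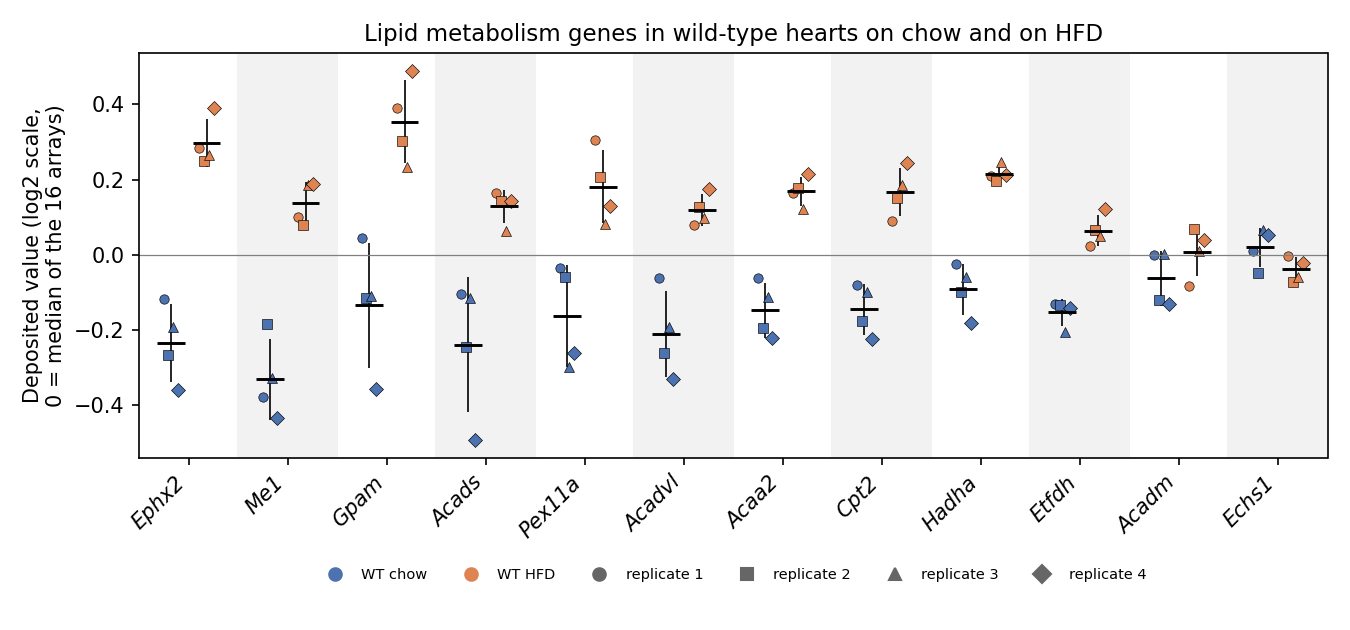
Deposited values of 12 lipid metabolism genes in the 4 WT chow and 4 WT HFD arrays, on a log2 scale where 0 is the median of the 16 arrays; marker shape gives the replicate, the bar the group mean and the line 1 SD. HFD points lie above chow points for the 10 called genes on the left, while Acadm and Echs1 overlap, and WT chow 4 is the lowest chow array in 9 of the 12 genes.

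The mean of the 34 PPAR-responsive genes was lowest in WT chow 4, at -0.17, against -0.087 to 0.028 in the other chow arrays and 0.054 to 0.19 on HFD. Without WT chow 4 the list median was 0.13, 29 of 34 lay above 0 and 2 were called; 2 were also called without WT HFD 4, 3 without WT HFD 2 or WT chow 3, and 1 with the 8 WT arrays alone or with WT chow 2 and 4 both out. The beta-oxidation count fell from 5 to 2 without WT chow 4 or WT HFD 4 and to 3 without WT HFD 2, and it was 0 with the 8 WT arrays alone and with WT chow 2 and 4 both out, where the median was 0.11 and 16 of 20 lay above 0. Among single genes, Acadvl missed the threshold without WT chow 4 (adjusted p = 0.0633) and without WT HFD 4 (adjusted p = 0.0578), Etfdh in 5 of the 8 leave-one-out fits, Pex11a in 5 and Acads in 6, with adjusted p up to 0.0740, 0.128 and 0.0978. Hadha, Acaa2, Cpt2, Ephx2, Vwa8 and Hsdl2 were called in all 8.

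Promoter sequence is shown for the called lipid genes in which a nuclear receptor half-site was found, since PPAR and related receptors bind repeats of it. Of 11 lipid genes searched, 9 had a promoter in the RefSeq table (GRCm38.p6, 250 bases before to 50 after the annotated start). The half-site AGGTCA, on either strand, lay in 2 of the 9, Acadvl and Gpam, and in 16.3% of 32851 promoters of that length. A gene counted if any of its promoters matched, while the percentages are shares of single promoters. A direct repeat of AGGTCA with 1 base of any kind between, the form PPAR binds with its partner, lay in 0 of the 9 and in 0.0396% of all promoters. The 250 bases before each start follow, with the match in capitals; Acadvl is chr11:70015429-70015678 on the minus strand, matching 87 bases before its start, and Gpam is chr19:55099478-55099727 on the minus strand, matching 196 bases before.
Acadvl: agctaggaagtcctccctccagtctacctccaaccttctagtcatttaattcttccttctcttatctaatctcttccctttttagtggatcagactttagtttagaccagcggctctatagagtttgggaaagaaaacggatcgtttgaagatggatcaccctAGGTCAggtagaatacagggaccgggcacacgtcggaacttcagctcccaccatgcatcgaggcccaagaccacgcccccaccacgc
Gpam: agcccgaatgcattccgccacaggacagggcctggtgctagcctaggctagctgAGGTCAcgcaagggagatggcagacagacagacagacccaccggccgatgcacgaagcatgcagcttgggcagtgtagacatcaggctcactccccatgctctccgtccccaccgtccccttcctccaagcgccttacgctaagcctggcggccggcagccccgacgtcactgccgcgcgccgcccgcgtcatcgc
The Acadvl match follows a T and so also reads TAGGTCA, the core of the RORE, which lay in 1 of the 9 genes. The RefSeq table has 2 Gpam promoters. A match is a run of letters and was not tested as a binding site.

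Lipid synthesis and cholesterol handling each gave 2 called genes, all higher. Me1, the cytosolic malic enzyme that makes NADPH for lipid synthesis, read -0.38, -0.18, -0.33 and -0.44 on chow and 0.10, 0.079, 0.18 and 0.19 on HFD. Its groups stood well apart, and it rose by 0.47 ± 0.056 (adjusted p = 0.00213). Gpam, the mitochondrial acyltransferase that starts triglyceride synthesis, read 0.045, -0.12, -0.11 and -0.36 on chow and 0.39, 0.30, 0.23 and 0.49 on HFD, with the highest chow heart below the lowest HFD heart, and rose by 0.49 ± 0.094 (adjusted p = 0.0341). These were 2 of 32 measured genes of fatty acid and triglyceride synthesis, whose median was 0.029. Abca1, the pump that exports cholesterol, read -0.0035, -0.22, -0.096 and -0.15 on chow and 0.29, 0.25, 0.18 and 0.27 on HFD and rose by 0.36 ± 0.053 (adjusted p = 0.00933). Mylip, the ligase that marks the low-density lipoprotein receptor for degradation, read -0.088, -0.20, -0.17 and -0.25 on chow and 0.24, 0.20, 0.18 and 0.25 on HFD and rose by 0.39 ± 0.072 (adjusted p = 0.0257). Both are known liver X receptor targets. They were 2 of 24 measured genes of cholesterol synthesis and uptake, in which 15 lay below 0 and the median was -0.027. Without 1 array, Me1 and Abca1 stayed called in all 8 fits, Mylip was lost in 7 (adjusted p up to 0.0910) and Gpam in 6 (adjusted p up to 0.111).

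Lists of glucose and energy metabolism held few calls, and with 0.352% of all genes called, 0 calls in such lists is near the background. Of 32 measured genes of glucose uptake and glycolysis 0 were called, 11 lay above 0 and the median was -0.046, and Gyg (glycogenin), with the smallest p, differed by -0.19 ± 0.053 (adjusted p = 0.141). Fbp2, the muscle fructose bisphosphatase, which opposes glycolysis, read -0.028, 0.030, -0.16 and -0.31 on chow and 0.39, 0.25, 0.42 and 0.48 on HFD. It rose by 0.50 ± 0.095 (adjusted p = 0.0341), a call lost in 6 of 8 leave-one-out fits (adjusted p up to 0.114). Pyruvate dehydrogenase and its kinases gave 0 of 13, the tricarboxylic acid cycle 0 of 19, branched-chain amino acid catabolism 0 of 23, ketone body metabolism 0 of 8 and the respiratory chain with ATP synthase 0 of 70, the last with a median of 0.0041. In the insulin and PI3-kinase list of 39 measured genes, Pik3r1, the p85-alpha regulatory subunit, read -0.16, -0.046, -0.042 and -0.18 on chow and 0.18, 0.22, 0.35 and 0.46 on HFD. It rose by 0.41 ± 0.061 (adjusted p = 0.0114), a call kept in all 8 leave-one-out fits. That call was lost with the 8 WT arrays alone and with WT chow 2 and 4 both out. Cdkn1a fell in the same list, and no other member was called.

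**Figure D2:**
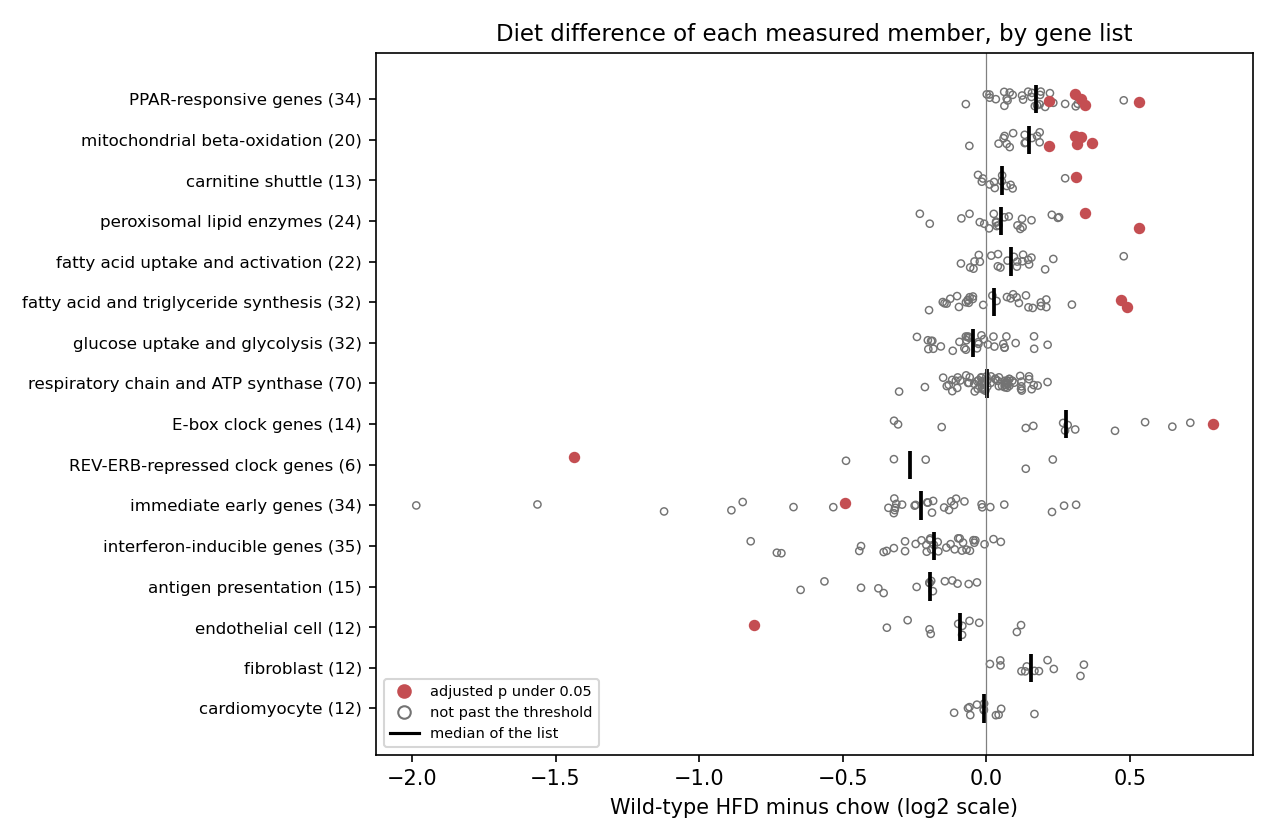
Diet difference (WT HFD minus WT chow, log2 scale) of each measured member of 16 gene lists, with list sizes in brackets; filled points passed an adjusted p of 0.05 and bars are list medians. The PPAR and beta-oxidation lists lie almost wholly above 0, the immediate early, interferon and antigen presentation lists almost wholly below, and the respiratory chain is centred near 0.

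In the circadian clock 2 genes passed, Arntl, which fell, and Wee1, which rose. Arntl read -0.32, -0.66, -1.34 and 0.54 on chow and -1.54, -1.94, -2.12 and -1.93 on HFD. Every HFD heart lay below every chow heart, but the chow hearts alone spanned from 0.54 in WT chow 4 to -1.34 in WT chow 3, while the HFD hearts lay close together. The fall was 1.43 on the log2 scale (-1.43 ± 0.26, adjusted p = 0.0245), a 2.70-fold lower value, and the largest of the 78. Wee1, a mitotic kinase gene driven through E-boxes, read -0.080, 0.18, 0.62 and -0.040 on chow and 0.66, 0.84, 1.20 and 1.14 on HFD. Groups did not overlap, WT chow 3 being the highest chow heart, and the rise of 0.79 ± 0.15 (adjusted p = 0.0338) was the largest of the 41.

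Other clock genes leaned the same way without passing. Of 14 measured genes driven through E-boxes, 1 was called, 11 lay above 0 and the median was 0.28, against 0.076 in Clock hearts. Dbp, an output transcription factor, read 1.71, 1.89, 2.29 and 0.37 on chow and 1.86, 2.36, 2.45 and 2.42 on HFD, and its groups overlapped at a difference of 0.71 ± 0.27 (adjusted p = 0.323). Per3 read 0.44, 0.61, 0.93 and -0.013 on chow and 0.93, 1.22, 1.22 and 1.19 on HFD, with WT chow 3 level with the lowest HFD heart, and differed by 0.65 ± 0.15 (adjusted p = 0.0760). Nr1d2, which encodes REV-ERB beta, differed by 0.55 ± 0.16 (adjusted p = 0.147), Bhlhe41 by 0.45 ± 0.15 (adjusted p = 0.252), Usp2 by 0.31 ± 0.12 (adjusted p = 0.351), Hlf by 0.28 ± 0.11 (adjusted p = 0.309), Tef by 0.27 ± 0.071 (adjusted p = 0.114) and Cry2 by 0.27 ± 0.12 (adjusted p = 0.461). The Tef value is the mean of probe sets that differed by 0.43 and 0.12. WT chow 4 was the lowest chow heart for each of the 8 genes from Dbp to Cry2. Ciart and Cry1 differed by 0.16 ± 0.25 and 0.14 ± 0.079 (adjusted p = 0.900 and 0.584). Below 0 were Per1 at -0.31 ± 0.27, Bhlhe40 at -0.32 ± 0.19 and Nr1d1, which encodes REV-ERB alpha, at -0.15 ± 0.11 (adjusted p = 0.775, 0.609 and 0.696). Nr1d1 was nearly the same in the 4 HFD hearts, from 0.49 to 0.50, and ran from 0.30 to 1.01 on chow.

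Of 6 measured genes repressed by REV-ERB, Arntl alone was called. Clock, the partner of ARNTL, read -0.11, -0.10, -0.28 and 0.17 on chow and -0.20, -0.43, -0.54 and -0.43 on HFD, and each HFD heart but 1 lay below the chow hearts, with a difference of -0.32 ± 0.080 (adjusted p = 0.0990). Npas2, a Clock paralog, differed by -0.49 ± 0.16 (adjusted p = 0.220) and Nfil3 by -0.21 ± 0.13 (adjusted p = 0.637). Rora, an activator at ROREs, read 0.068, 0.078, 0.077 and -0.054 on chow and 0.19, 0.33, 0.32 and 0.26 on HFD, groups that did not overlap with a difference of 0.23 ± 0.049 just outside the threshold (adjusted p = 0.0549).

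**Figure D3:**
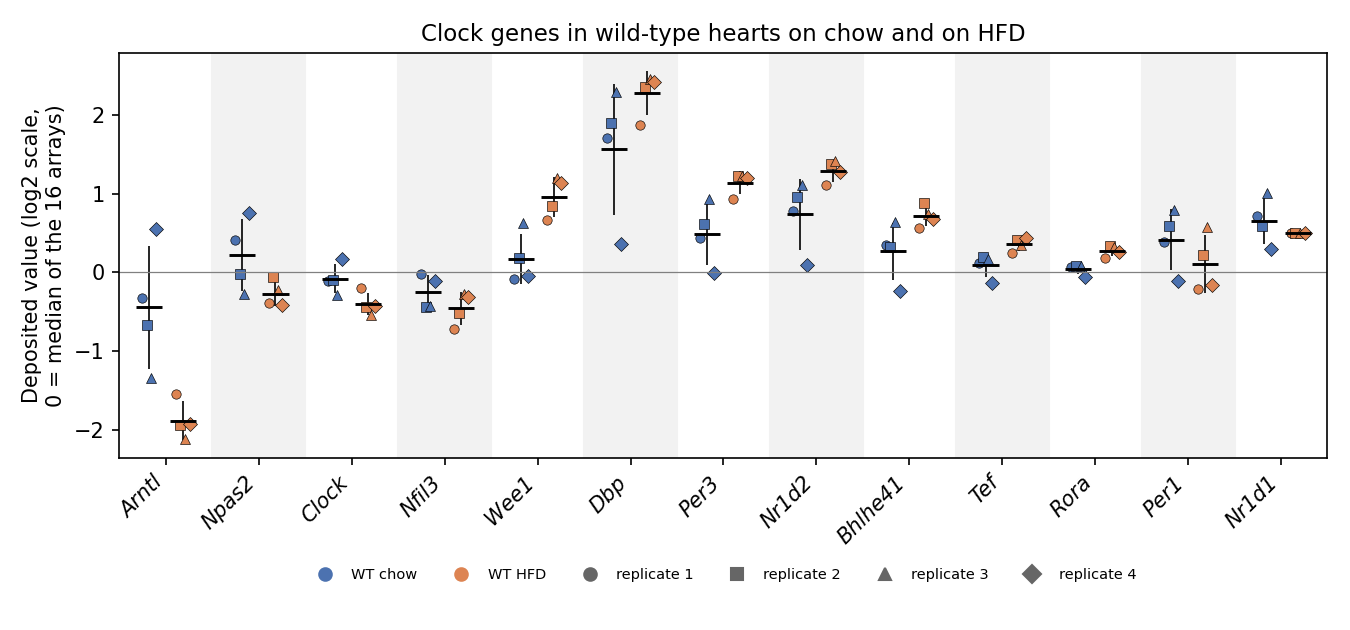
Deposited values of 13 clock genes in the 4 WT chow and 4 WT HFD arrays (log2 scale, 0 is the median of the 16 arrays; bar, mean; line, 1 SD; marker shape, replicate). WT chow 4 is the highest chow array for Arntl, Npas2 and Clock and the lowest for Dbp, Per3, Nr1d2 and most other E-box genes, while the HFD arrays lie closer together.

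WT chow 4 stood apart in these genes, with Dbp at 0.37 against 1.71 to 2.29 in the other chow hearts and a mean over the 14 E-box genes of -0.016 against 0.46 to 0.82. A single time of day was sampled, so a shift in phase, a change in amplitude and a change in mean level cannot be told apart. Without WT chow 4 the Arntl difference was -1.10 (adjusted p = 0.0293) and the E-box median was 0.19, and Wee1 differed by 0.72 with an adjusted p of 0.114. The Arntl call was lost without WT chow 1 (adjusted p = 0.0720) or WT HFD 2, 3 or 4 (adjusted p = 0.0603, 0.0622 and 0.0670), and the Wee1 call in 6 of the 8 leave-one-out fits, those without WT chow 3 and WT HFD 1 being the exceptions. With only the 8 WT arrays in the fit Arntl had an adjusted p of 0.182 and Wee1 of 0.157, and with quantile normalization repeated the Arntl difference was -0.82 (adjusted p = 0.325).

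The RORE of Arntl is printed because Arntl had the largest difference of the 78 called genes and is the textbook target of this element. The core TAGGTCA, which holds the half-site AGGTCA and was searched on both strands, lay in 2 of 17 clock genes with a promoter in the RefSeq table, Arntl and Nfil3, and in 2.61% of 32851 promoters. Here too a gene counted if any of its promoters matched, while the percentages are shares of single promoters. In GRCm38.p6 the 30 bases chr7:113207528-113207557 on the plus strand hold it, 30 bases after an annotated start; the table has 2 Arntl promoters. Capitals mark the core.
Arntl: ggaaggcagaaagTAGGTCAgggacggagg
The E-box CACGTG, on both strands, lay in 5 of the 17 clock genes (Bhlhe41, Ciart, Cry1, Per1 and Tef) and in 7.15% of all promoters. None of these 5 was called, and neither motif was set against the diet difference.

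Several of the called falls were genes known from vessels, a grouping made after their values were seen and given no test; of the 5 below, Cldn5 alone is on the endothelial list. Bcl6b, a transcriptional repressor found in endothelium, read 0.075, 0.00017, 0.47 and -0.00017 on chow and -0.82, -0.52, -0.52 and -0.90 on HFD. WT chow 3 was the highest heart and the HFD hearts lay wholly below chow, and the difference was -0.83 ± 0.13 (adjusted p = 0.0156). Cldn5, the claudin of endothelial tight junctions, read 0.013, 0.24, -0.013 and -0.16 on chow and -0.70, -0.65, -0.93 and -0.86 on HFD. Its groups stood apart, and it fell (-0.81 ± 0.17, adjusted p = 0.0482). Rhoj, a small GTPase of endothelial cells, read -0.095, -0.084, 0.18 and 0.0031 on chow and -0.60, -0.54, -0.61 and -0.60 on HFD. The 4 HFD hearts were nearly alike, and the difference was -0.59 ± 0.11 (adjusted p = 0.0301). Cd93, an endothelial surface glycoprotein, fell (-0.43 ± 0.072, adjusted p = 0.0167), as did F2r, the thrombin receptor (-0.40 ± 0.067, adjusted p = 0.0167); both were named after their values were seen.

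Of 12 endothelial markers 1 was called (Cldn5), 10 lay below 0 and the median was -0.091. The mean of the 12 was -0.24 to -0.17 on HFD and -0.072 to 0.038 on chow, without overlap. Kdr, the main receptor of vascular endothelial growth factor, read 0.011, 0.042, 0.0055 and 0.025 on chow and -0.40, -0.28, -0.41 and -0.21 on HFD. The chow hearts were nearly identical and the HFD hearts all lower, with a difference of -0.35 ± 0.072 just outside the threshold (adjusted p = 0.0517), and Egfl7 differed by -0.27 ± 0.061 (adjusted p = 0.0697). In tissue RNA, fewer endothelial cells and less of these RNAs per cell cannot be told apart. The Bcl6b call was lost without WT HFD 4 (adjusted p = 0.0505), the Cd93 call without WT chow 4, WT HFD 1 or WT HFD 4 (adjusted p up to 0.0668), the F2r call without WT chow 1, WT HFD 1 or WT HFD 4 (adjusted p up to 0.0578), the Rhoj call in 7 and the Cldn5 call in 8 (adjusted p 0.0742 to 0.111), though Cldn5 passed with the 8 WT arrays alone (adjusted p = 0.0273).

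Matrix and growth factor genes were split. Mmp14, a membrane-bound collagenase, read 0.050, -0.13, -0.036 and 0.099 on chow and -0.44, -0.41, -0.61 and -0.36 on HFD. It fell (-0.45 ± 0.077, adjusted p = 0.0167), the 1 call among 49 other matrix genes. Has2, which makes hyaluronan, read 0.17, -0.027, 0.034 and 0.30 on chow and -0.40, -0.20, -0.43 and -0.51 on HFD and fell (-0.50 ± 0.088, adjusted p = 0.0221). Tgfb1, the transforming growth factor of fibrosis, read 0.16, 0.18, 0.13 and 0.17 on chow and -0.18, -0.067, -0.094 and -0.21 on HFD. Its chow hearts were tightly grouped, and it fell (-0.30 ± 0.048, adjusted p = 0.0156). Tgfb1i1 (HIC-5), a focal adhesion protein induced by that factor, fell as well (-0.45 ± 0.075, adjusted p = 0.0167). Bmp4, another ligand of the family, went the other way with 0.011, -0.046, -0.098 and 0.0013 on chow and 0.42, 0.60, 0.58 and 0.40 on HFD. It rose by 0.53 ± 0.10 (adjusted p = 0.0348), and in the list of 39 transforming growth factor and bone morphogenetic protein genes Tgfb1 and Bmp4 were the 2 calls.

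Collagens gave no call, which is near the background for a list of this size, with 0.352% of all genes called. Of 24 fibrillar and basement membrane collagens 0 were called, with a median of 0.0080, and Col1a1 differed by 0.013 ± 0.099 and Col3a1 by 0.14 ± 0.11 (adjusted p = 0.984 and 0.749). All 12 fibroblast markers lay above 0, with a median of 0.15 and 0 called; Lum, with the smallest p, read -0.41, -0.52, -0.41 and -0.25 on chow and 0.12, 0.13, -0.19 and -0.30 on HFD and differed by 0.34 ± 0.092 (adjusted p = 0.129). The mean of the 12 was -0.23 to -0.081 on chow and -0.15 to 0.14 on HFD, with WT HFD 3 inside the chow range. Without 1 array, the Tgfb1 call was lost once, without WT HFD 4 (adjusted p = 0.0505), the Mmp14 call without WT chow 1 or 4 (adjusted p up to 0.0668), the Tgfb1i1 call without WT chow 4, WT HFD 2 or WT HFD 4 (adjusted p up to 0.0658), the Has2 call in 5 fits and the Bmp4 call in all 8 (adjusted p up to 0.0906).

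Among genes of conduction and contraction, 2 of 16 measured sodium, pacemaker and gap junction channel genes were called, in opposite directions. Scn4b, the beta-4 subunit of the cardiac sodium channel, read -0.055, -0.17, -0.047 and -0.19 on chow and 0.46, 0.47, 0.27 and 0.43 on HFD. It rose by 0.52 ± 0.076 (adjusted p = 0.00933) and stayed called in all 8 leave-one-out fits, but not with WT chow 2 and 4 both out. Gja1, which encodes connexin 43, the main ventricular gap junction protein, read 0.37, 0.17, 0.20 and 0.33 on chow and -0.26, 0.027, -0.027 and -0.10 on HFD. It fell (-0.36 ± 0.067, adjusted p = 0.0302), and the call was lost in 4 of 8 leave-one-out fits (adjusted p up to 0.100). Pde11a, a phosphodiesterase of cyclic AMP and GMP, read 0.0078, 0.085, 0.22 and -0.0078 on chow and 0.54, 0.77, 0.89 and 0.55 on HFD and rose by 0.61 ± 0.098 (adjusted p = 0.0156), while Prkar1a, a regulatory subunit of protein kinase A, fell (-0.31 ± 0.061, adjusted p = 0.0348, lost in 8 of 8 leave-one-out fits). Calcium handling gave 0 of 28, led by Cacna2d1 at 0.26 ± 0.057 (adjusted p = 0.0646), and potassium channels 0 of 28, led by Kcnv2 at 0.48 ± 0.11 (adjusted p = 0.0720).

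**Figure D4:**
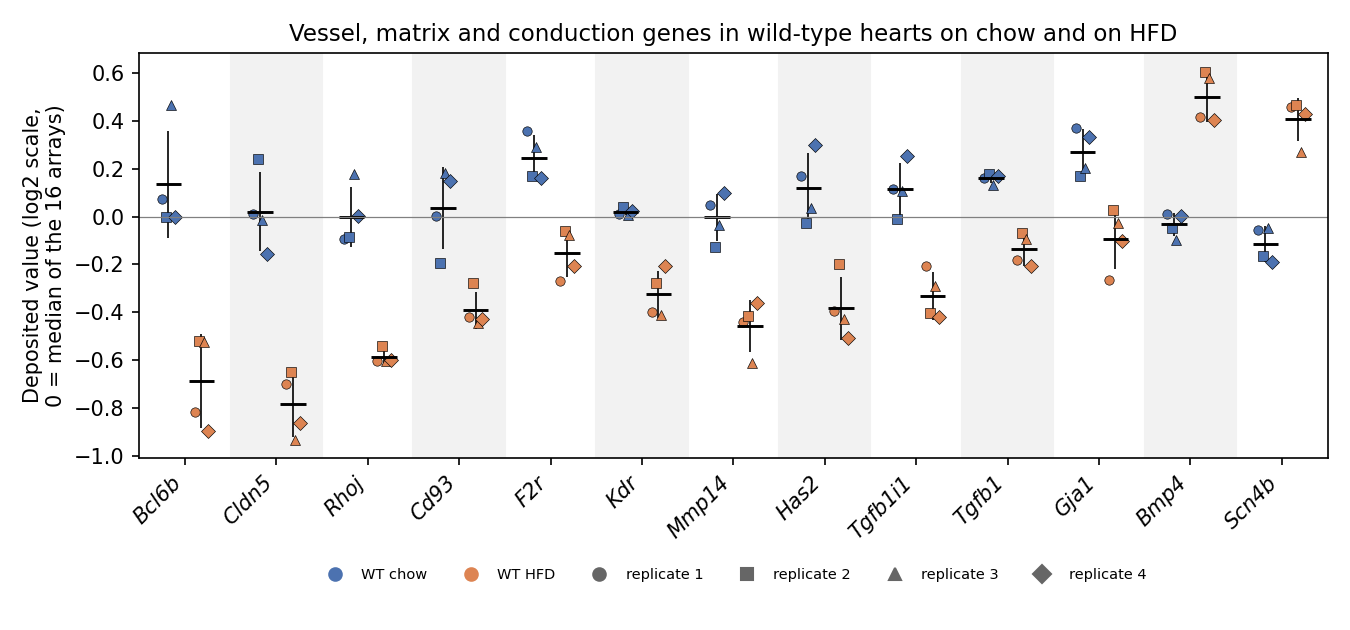
Deposited values of 13 vessel, matrix and conduction genes in the 4 WT chow and 4 WT HFD arrays (log2 scale, 0 is the median of the 16 arrays; bar, mean; line, 1 SD; marker shape, replicate). The HFD points lie below the chow points for the 11 genes from Bcl6b to Gja1, of which Kdr missed the threshold, and above them for Bmp4 and Scn4b.

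Hypertrophy and stretch genes gave 0 calls of 29, with 18 below 0. Rcan1, a calcineurin feedback gene with the smallest p of that list, read -0.37, -0.51, -0.27 and -0.030 on chow and -0.65, -0.76, -0.90 and -1.35 on HFD and differed by -0.62 ± 0.14 (adjusted p = 0.0774). Nppa, the atrial natriuretic peptide gene, differed by -0.88 ± 0.33 (adjusted p = 0.304), and its chow hearts lay above the HFD hearts.

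The largest falls after Arntl came from genes of unlike function. Cdkn1a, the p21 inhibitor of cyclin-dependent kinases, read -0.17, 0.00052, -0.44 and 0.34 on chow and -1.20, -1.42, -1.04 and -1.80 on HFD. The groups were well separated, and the fall was 1.30 on the log2 scale (-1.30 ± 0.23, adjusted p = 0.0245), or 2.46-fold. Scgb1c1, a secretoglobin, read 0.94, 0.43, 0.72 and 0.65 on chow and -0.40, -0.063, -0.60 and -0.32 on HFD and fell by 1.04 (SE 0.19, adjusted p = 0.0261). C7, a component of the complement membrane attack complex, read 0.82, 1.08, 0.17 and 0.41 on chow and -0.091, -0.40, -0.48 and -0.14 on HFD. Its chow hearts were widely spread, and the difference was -0.90 ± 0.18 (adjusted p = 0.0380), the 1 call in 20 complement genes. Cdkn1a lost its call in 5 of 8 leave-one-out fits (adjusted p up to 0.0821), Scgb1c1 in 6 (up to 0.0810) and C7 in 7 (up to 0.104).

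Membrane transporters supplied 4 more falls, a grouping made after their values were seen and given no test, as was the choice of Slc38a2. Slc41a3, a magnesium transporter, differed by -0.76 ± 0.13 (adjusted p = 0.0167) and Slc7a1, the carrier of arginine and lysine, by -0.67 ± 0.12 (adjusted p = 0.0190). Slc16a13, of the monocarboxylate transporter family, differed by -0.52 ± 0.089 (adjusted p = 0.0190) and Slc38a2, the carrier of small neutral amino acids, by -0.45 ± 0.089 (adjusted p = 0.0425). HFD values lay below chow values in each of the 4. Slc41a3 lost its call without WT chow 4 or WT HFD 4 (adjusted p up to 0.0613), Slc7a1 and Slc16a13 without WT chow 1, WT HFD 1 or WT HFD 4 (adjusted p up to 0.0652 and 0.0628) and Slc38a2 in 7 of 8 leave-one-out fits (adjusted p up to 0.115).

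Several called falls were genes of the actin and tubulin skeleton, a grouping made after their values were seen and given no test. Pfn1, which loads actin monomers, differed by -0.32 ± 0.067, Twf2, a twinfilin, by -0.35 ± 0.068, Pdlim1, an actinin-binding protein, by -0.42 ± 0.080, and Rras, a GTPase of cell adhesion, by -0.41 ± 0.074 (adjusted p = 0.0494, 0.0377, 0.0341 and 0.0254). Myadm, a membrane protein of cell spreading, read 0.027, 0.0067, 0.12 and 0.20 on chow and -0.34, -0.36, -0.27 and -0.30 on HFD and fell (-0.41 ± 0.059, adjusted p = 0.00933), a call that stayed in all 8 leave-one-out fits. The other 4 were lost in 5 to 7 of them. Tubb5, a beta tubulin, fell by 0.27 (SE 0.050, adjusted p = 0.0338), but its 2 probe sets differed by -0.42 and -0.11, and the call was lost in 6 of 8 leave-one-out fits (adjusted p up to 0.0949). Wipf3, of the WASP-interacting family, was the exception with a rise of 0.34 ± 0.049 (adjusted p = 0.00933).

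Gstp1, a glutathione transferase with near-identical neighbours that a probe set may not separate, read 0.34, 0.16, 0.28 and 0.37 on chow and -0.42, -0.019, -0.18 and -0.21 on HFD and fell (-0.49 ± 0.089, adjusted p = 0.0254), the 1 call among 39 antioxidant genes. Mif, an inflammatory cytokine gene with pseudogene copies in the mouse, fell (-0.38 ± 0.072, adjusted p = 0.0332), and Phlda1 fell too (-0.57 ± 0.092, adjusted p = 0.0156). Dpy19l3, a mannosyltransferase, read 0.24, 0.24, 0.31 and 0.089 on chow and -0.16, -0.23, -0.29 and -0.36 on HFD, 1 of the 4 genes with the smallest adjusted p, and fell (-0.48 ± 0.059, adjusted p = 0.00213). Fmo2, a flavin monooxygenase, and Lonrf1 rose by 0.45 ± 0.091 and 0.46 ± 0.093 (adjusted p = 0.0449 and 0.0427). Gstp1 and Fmo2 lost their calls in 6 leave-one-out fits, Lonrf1 in 7, Mif in 5 and Phlda1 in 1, without WT HFD 4 (adjusted p = 0.0505).

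Immediate early genes, which are transcribed within minutes of a stimulus, lay lower on HFD with wide scatter. Of 34 measured, 1 was called (Egr2, lower), 29 lay below 0 and the median was -0.23. Egr2 read -0.12, 0.0022, 0.079 and 0.14 on chow and -0.49, -0.49, -0.17 and -0.73 on HFD and fell (-0.49 ± 0.094, adjusted p = 0.0341), a call lost in 6 of 8 leave-one-out fits (adjusted p up to 0.114). Nr4a3, an orphan nuclear receptor, read 0.58, 1.16, 0.85 and 0.053 on chow and -1.80, -1.10, 0.20 and -2.59 on HFD. WT HFD 3 fell within the chow range while WT HFD 4 and 1 were lowest, so that the difference of -1.99 ± 0.59, the largest in size of all 22180 genes, did not pass (adjusted p = 0.173). Nr4a1 had the same order of HFD hearts, -1.73, -0.99, -0.12 and -2.29, and differed by -1.56 ± 0.40 (adjusted p = 0.110). The list mean was -0.50 in WT HFD 4, -0.40 in WT HFD 1, -0.21 in WT HFD 2 and 0.038 in WT HFD 3, against -0.071 to 0.16 on chow. With that mean as a covariate 12 genes were called, 10 of them among the 78, and the calls went from 5 to 0 in the beta-oxidation list and from 5 to 1 in the PPAR-responsive list. All 78 kept their sign in that fit. Since the mean itself lay lower in most HFD arrays, the fit cannot tell diet and immediate early genes apart.

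Interferon-inducible genes lay below 0 in the comparison, and WT chow 2 stood far above the other chow hearts for several of them. Of 35 measured genes 0 were called, 33 lay below 0 and the median was -0.18. Igtp, an interferon-induced GTPase, read -0.024, 3.57, -0.14 and -0.25 on chow and 0.0043, 0.29, -0.18 and 0.19 on HFD, and Iigp1 and Irgm2 read 2.94 each in WT chow 2 against -0.35 to 0.32 in the other chow hearts. Without WT chow 2 the list median was 0.00090 and 18 of 35 lay above 0. Antigen presentation genes gave 0 calls of 15, all 15 below 0 with a median of -0.20, and without WT chow 2 a median of -0.051 with 6 above 0. Psme1, an interferon-inducible proteasome activator subunit, read 0.75 in WT chow 2 against 0.16 to 0.23 in the other chow hearts, and differed by -0.44 ± 0.10 (adjusted p = 0.0720).

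Inflammatory cytokine and adhesion genes gave 0 calls of 42, with 33 below 0 and a median of -0.10. Tnf, with the smallest p of that list, read 0.31, 0.33, 0.16 and 0.054 on chow and -0.16, -0.19, -0.16 and -0.46 on HFD. Its groups did not overlap, and the difference of -0.46 ± 0.097 lay just outside the threshold (adjusted p = 0.0560). Macrophage markers gave 0 of 14, with list means of -0.097 to 0.35 on chow, the highest in WT chow 2, and -0.22 to 0.061 on HFD. Heat shock chaperones gave 0 of 23, led by Hspb1 at -0.29 ± 0.066 (adjusted p = 0.0724), the mean of probe sets that differed by -0.43 and -0.15. Of the respiratory chain, Cox6a1 had the smallest p, at -0.30 ± 0.075 (adjusted p = 0.0990).

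Adipocyte markers, read beside the lipid results because fat lies around the heart, gave no call. Of 11 white adipocyte markers measured 0 were called, the median was 0.084, and the list mean was -0.063 to 0.015 on chow and -0.032 to 0.070 on HFD. Of 10 brown adipocyte markers 0 were called, the median was 0.039, and the list mean was -0.090 to 0.012 on chow and -0.014 to 0.042 on HFD. Cidea, a lipid droplet protein on the brown list, differed by 0.31 ± 0.091 (adjusted p = 0.167). Whether these shifts enter the lipid results was not tested.

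Clock hearts were used to ask whether the wild-type diet differences were seen in other mice. There 20 genes were called between HFD and chow (0.0902% of genes), 8 of them among the 78 of wild-type hearts, which is 10.3% of the wild-type list and 40% of the Clock list. The 2 comparisons use different arrays and share the spread estimated from all 16. The 8 were Ephx2, Scn4b, Vwa8, Hadha, Acaa2 and Acadvl, higher in both, and Tgfb1 and C7, lower in both. Ephx2 read -0.32, -0.34, -0.22 and -0.21 in Clock chow hearts and 0.12, 0.20, 0.18 and 0.33 in Clock HFD hearts, a difference of 0.48 ± 0.059 (adjusted p = 0.00666). Scn4b differed by 0.56 ± 0.076 and Tgfb1 by -0.36 ± 0.048 in Clock hearts (adjusted p = 0.00666 and 0.00666), and C7 by -1.07 ± 0.18 (adjusted p = 0.0289).

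Of the 41 genes that rose in wild-type hearts, 36 also lay above 0 in Clock hearts. In 25 the Clock HFD values lay wholly above the Clock chow values. Over all genes, 5.31% had Clock values that did not overlap between diets, a share that counts both directions. Of the 37 that fell, 33 lay below 0 in Clock hearts and 15 had Clock HFD values wholly below the Clock chow values. Since these genes were chosen for a large wild-type difference, their medians are a description, at 0.34 in wild-type and 0.17 in Clock hearts for the rises and -0.44 and -0.15 for the falls. PPAR-responsive genes had a median of 0.27 and beta-oxidation genes 0.19 in Clock hearts. Pdk4, which did not pass in either genotype, differed by 0.76 ± 0.16 in Clock hearts (adjusted p = 0.0940).

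The test of the difference between genotypes, the genotype by diet interaction in limma, called 0 genes, with 1122 genes (5.06%) at an unadjusted p under 0.05. Wipf3 had the smallest interaction p among the called genes, rising by 0.34 in wild-type hearts against -0.11 ± 0.049 in Clock hearts (interaction adjusted p = 0.150). The predicted gene A730017L22Rik read -0.18, -0.25, -0.29 and -0.16 on chow and 0.058, 0.10, -0.0054 and 0.073 on HFD and rose by 0.27 ± 0.046 (adjusted p = 0.0167), against a difference of -0.13 ± 0.046 in Clock hearts, of opposite sign (adjusted p = 0.417; interaction adjusted p = 0.150); the wild-type call was lost in 2 of 8 leave-one-out fits. Dpy19l3 (-0.48 ± 0.059 against -0.078 ± 0.059) had an interaction adjusted p of 0.680. Bmp4 differed by -0.15 ± 0.10 in Clock hearts (interaction adjusted p = 0.710). Arntl differed by -0.24 ± 0.26 there, where the HFD values were 0.051, 0.089, 0.056 and -0.051 and the chow values 0.43, 0.37, 0.18 and 0.12, and its interaction had an adjusted p of 0.793. Cdkn1a differed by 0.053 ± 0.23 and Cldn5 by 0.13 ± 0.17 in Clock hearts (interaction adjusted p = 0.760 for each). A diet difference particular to wild-type hearts was therefore not shown for any gene.

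**Figure D5:**
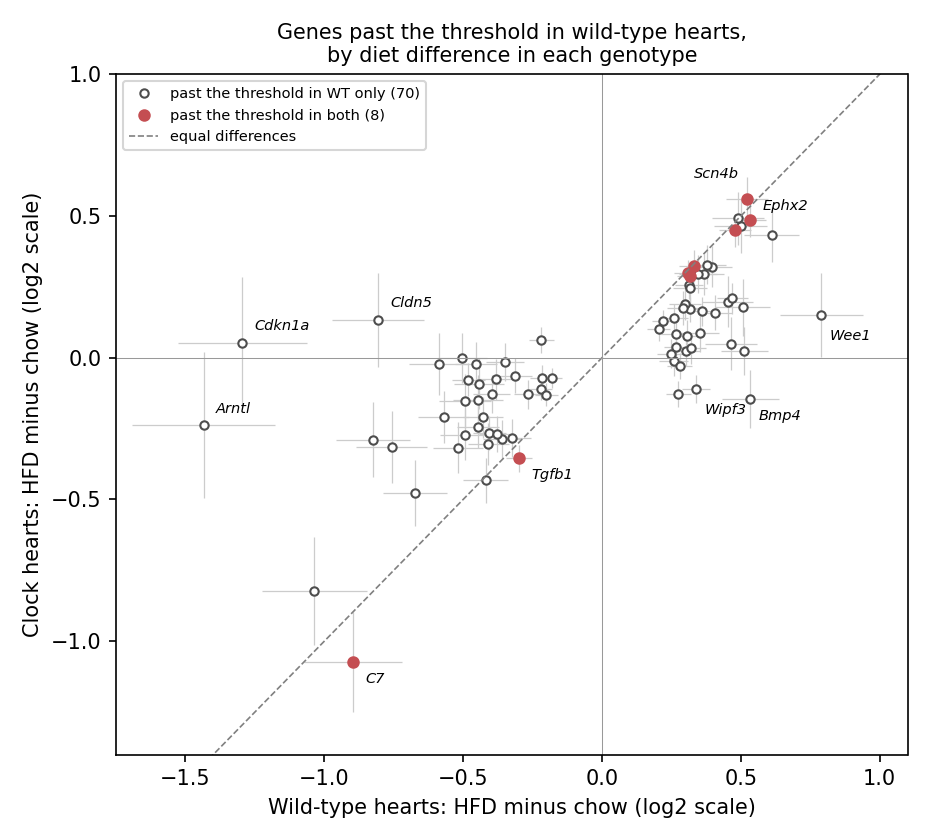
Diet difference (HFD minus chow, log2 scale) of the 78 called genes in wild-type hearts (horizontal) against Clock hearts (vertical); lines are 1 SE of the fit, filled points the 8 genes called in both, and the dashed line marks equal differences. Ephx2, Scn4b and Tgfb1 lie near the dashed line, C7 below it, and Arntl, Cdkn1a, Cldn5, Wee1 and Bmp4 lie nearer to 0 in Clock hearts.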

How the data were processed

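Gene expression was measured on 16 Affymetrix arrays of mouse myocardium, 4 each from WT HFD, WT chow, Clock HFD and Clock chow. The authors deposited 1 processed table of 34351 probe sets. Its log2 values, as deposited, had been made relative to each row's median over the 16 arrays, which was found from the values themselves; log2 is an assumption. The base and sign of the logarithm, the array software and the probes' genome build were not given in the sources used here. Per the deposited values, array medians lay within 0.0028 of 0, so no scaling was added, and with centred values no filter on dim probes was possible. Leaving out genes with a variance under the median was tried as another setting, but it does not pick out dim probes. The number of arrays limits the precision.

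Probe sets with 1 symbol (23521; 1814 had several, 9016 none) were averaged per gene into 22180 genes, 1082 of them with several probe sets. limma 3.58.1 (lmFit, eBayes; R 4.3.3) fitted 4 group means to all 16 arrays, with 12 residual degrees of freedom, two-sided, Benjamini-Hochberg adjusted over all genes, threshold 0.05. The fit was tested on simulated data: of 200 genes changed by 0.5 it recovered 94.8%, and of those changed by 0.25 it recovered 22.6%. Of the calls, 5.95% were false at 0.5 and 2.16% at 0.25. Several measured differences above 0.5 missed the threshold, such as those of Dbp, Per3 and Nr1d2, so these rates do not hold for every gene. Figures were drawn with matplotlib 3.10.9.

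The comparison, the 43 pathway lists and the 24 cell type lists (1373 of 1505 entries matched) were chosen with earlier results of these data known. Named genes are the 14 largest rises and falls among calls without overlap, leaving out predicted, clone-named, microRNA and small nucleolar RNA genes, up to 4 calls per list or its member with the smallest p, all clock genes, and the calls with the 5 smallest adjusted p and the 3 smallest interaction p. Others were chosen after their values were seen. Lists are given by counts and medians without a test. Promoters are from RefSeq.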

Additional observations from a re-analysis of the deposited data

Results flagged for a closer look

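In groups of 4 arrays, the highest or lowest heart of some genes stood off from the other 3 by a gap that passed Dixon's test at the 95% level. Chance flags about 1 in 20 groups, and 17 of 228 groups tested (7.46%) were flagged. The groups came from genes named in this text, some chosen after their values were seen, and from list means that share genes with them. The share flagged can therefore not be set against chance. WT chow 2 stood off in interferon genes: Igtp at 3.57, Iigp1 at 2.94, Irgm2 at 2.94, Psme1 at 0.75 and the mean of the interferon-inducible list at 0.81, against at most 0.32 for the other chow hearts in each of these. It also stood off upward for Cd36, at -0.015 against -0.073 to -0.065. WT chow 4 was low for Rora, at -0.054 against 0.068 to 0.078, and for Decr1, at -0.17 against -0.025 to -0.0028. WT chow 3 was high for Bcl6b, at 0.47 against -0.00018 to 0.075, and low for Etfdh, at -0.21 against -0.14 to -0.13. WT chow 1 was low for Tubb5, at 0.16 against 0.19 to 0.20.

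On HFD, WT HFD 1 was low for the clock genes Per3, at 0.93 against 1.19 to 1.22, and Dbp, at 1.86 against 2.36 to 2.45. WT HFD 2 was high for the endothelial genes Cd93, at -0.28 against -0.44 to -0.42, and Rhoj, at -0.54 against -0.61 to -0.60. WT HFD 4 was high for Egfl7, at -0.18 against -0.34 to -0.32, and low for Tnf, at -0.46 against -0.19 to -0.16.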

How the results depend on the processing

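Of 22180 genes, 78 were called in wild-type hearts. With only the 8 WT arrays in the fit 15 were called, with a trended and robust variance 40, with genes of below-median variance left out 133, without WT chow replicates 2 and 4 together 11, and 12 after adding each array's immediate early list mean as a covariate. Leaving out 1 array of the comparison gave 28 to 65. In Clock hearts 20 were called, and 8 with a trended and robust variance, 53 with array weights, 36 with quantile normalization repeated, 47 without genes of below-median variance and 6 to 27 leaving out 1 array. The interaction called 0 genes under each alternative. All 78 genes kept their sign under each alternative tried on genes (73 of 73 present after the low-variance filter). For the 77 genes whose groups did not overlap, leaving out arrays could not change the sign. The cause of these changes was not tested.

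Replicate numbers occur in each group, but the deviations of same-numbered WT chow and HFD arrays correlated at -0.072, 0.016, 0.014 and -0.065, so the numbers were not read as pairs. With the replicate block 41 wild-type and 12 Clock genes were called. Trended and robust moderation left Arntl at an adjusted p of 0.736. The trend followed each gene's mean over the arrays, which in centred values is not a level. The counts and the adjusted p of that setting carry this limit. Dim probes could not be identified from centred values, and in simulated data differences of 0.25 were mostly missed.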

Other observations

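Xenobiotic and retinoid genes, not described above as a group, gave 2 calls of 29 measured, Ephx2 and Fmo2, both higher (0.185% of all genes were called higher), and 6 members had HFD values wholly above chow, against 2.80% of all genes. Ces1d, a carboxylesterase with near-identical neighbours that was named after its values were seen, read 1.37, 1.43, 1.63 and 0.36 on chow and 1.90, 1.93, 2.24 and 1.98 on HFD, with WT chow 4 again the low heart, and differed by 0.81 ± 0.19 (limma adjusted p = 0.0724). In Clock hearts it differed by -0.11 ± 0.19, and its interaction had an adjusted p of 0.760.

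Lipid droplet and lipolysis genes gave 0 calls of 18, with 13 above 0 and 3 whose HFD values lay wholly above chow, against 2.80% of all genes. With 0.352% of all genes called, 0 calls in lists of this size is near the background and says nothing of their members. Mitochondrial uncoupling and biogenesis genes gave 0 of 24, autophagy and lysosome 0 of 34, proteasome 0 of 38, and the ATF4 and endoplasmic reticulum stress list 0 of 33. Hypoxia and angiogenesis gave 0 of 27 with 19 below 0, splicing and processing kinases 0 of 25, and circulating factors 0 of 35. Among 40 cell cycle genes and 22 glucocorticoid-induced genes, Cdkn1a was the 1 call in each. Smooth muscle and pericyte markers gave 0 of 11 with a median of -0.038, and T cell, B cell and neutrophil markers 0 of 8, 0 of 7 and 0 of 9.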
